A study of Cucumis melo with 62 samples.

Results

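The 60 genes described here were read more highly in fruit of the melon cultivar F39 than in fruit of the cultivar TTDV, in each environment used to choose them (60 of 29980 gene IDs). They were chosen on measured values in 4 environments, namely Arizona, California and North Carolina in 2019 and Uvalde in 2018. For each gene the highest of the 4 TTDV group means was taken from the lowest of the 4 F39 group means, and the 60 genes with the largest gap were kept. A gap above 0 was found for 497 genes, so 437 further genes had the same order of group means with a smaller gap and serve as the comparison. What the 60 genes did in groups that had no part in the choice is the subject of the tests.

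Melon (Cucumis melo) cultivars differ widely in rind, flesh, sugar, aroma and pigment, and the fruit's composition also changes with the place and season in which it ripens. During ripening the fruit builds up sugars, carotenoids and volatile compounds, in many types under the control of the hormone ethylene, and its transcripts change with the stage. The order of 2 cultivars in the level of a transcript can hold in one field and turn in another, so genes that keep their order over several fields are of use for telling cultivars apart.

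The fruit had been harvested at about 45 days after flowering, and all plants are labelled wild type. In 2019, F39 was grown in Georgia, North Carolina, Uvalde (Texas), Arizona and California, and TTDV in these fields and in Indiana; both were also grown at Uvalde in 2018. At Weslaco (Texas) 8 other cultivars were grown in 2019, labelled CRUSER, PRIMO, Infinite Gold, TH-5, TH-6, HD150, HD252 and OC164. Every group held 3 libraries except TTDV Georgia with 2, which gave 38 libraries of F39 and TTDV and 24 from Weslaco, or 62 in all. The labels name the cultivars without describing them, and do not say whether a group's libraries are separate plants or repeat preparations, so a p-value reflects the spread among the libraries at hand, which may be technical.

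Libraries held 6251302 to 31333150 reads in the F39 and TTDV table and 4041908 to 21290476 at Weslaco. Levels are given as normalised reads, meaning reads recovered from the deposited values and divided by the library's size factor; they are not per length, so levels are compared between libraries and not between genes. A count of 0 allows up to 3 reads, or 1.42 to 6.76 normalised reads in the first table and 1.86 to 13.9 at Weslaco, which covers counting error only. Differences and their standard errors (SE) are in log2-like units of the deposited scale, on which a doubling from 10 reads counts 0.405 and a doubling from 1000 reads counts 0.975. All 60 genes passed the filter on low values in the first table and 59 at Weslaco, where MELO3C035516.2 fell short.

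Some libraries stood apart and are named before the results. The 6 libraries of Uvalde 2019 ran against their cultivar labels, and they are called "labelled F39" and "labelled TTDV" throughout. F39 Georgia replicates 2 and 3 had been doubted from other marker genes of these data, so Georgia counts are also given without them. F39 Georgia replicate 3 and F39 Arizona replicate 1 shared a lack of reads in 4 of the 60 genes. The deposited tables pair no gene ID with a product, and the reference table matched 0 of the IDs, so roles of single genes cannot be given, the labelled tissue was not checked against markers, and genes are ordered by level and by pattern. In whole fruit tissue, fewer cells of a type and less RNA per cell cannot be told apart.

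In the 4 environments that chose them, some genes had reads in every F39 library and 0 in every TTDV library, and others only shifted in level. These values were used by the rule and carry no test. The gap ran from 0.488 to 5.40 with a median of 0.80, and it was above 1 for 23 genes and above 2 for 7. MELO3C016167.2 had the largest gap: its 12 F39 libraries held 7795 to 30888 reads with a median of 22047, and its 12 TTDV libraries 31.4 to 648 with a median of 100.2. MELO3C016588.2 came next with 150 to 689 reads in F39 (median 250.2) and 0 to 21.1 in TTDV (median 3.82). In both genes each F39 library lay above each TTDV library.

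Single libraries did not overlap between the cultivars for 27 of the 60 genes and overlapped for 33. Group means on the deposited scale never overlapped, which the rule required. The same libraries chose the genes and the share over all genes was not counted, so these numbers only describe the choice. MELO3C004050.2, the last gene taken (gap 0.488), held 49.1 to 377 reads in F39 and 3.44 to 403 in TTDV, so its libraries overlapped over most of their range. MELO3C014098.2, the first gene left out (gap 0.478), was a weakly read gene with 0 to 37.4 reads in F39 and 0 to 1.72 in TTDV.

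By level in TTDV, 13 genes had a highest TTDV group mean of at most 1 read, 13 lay between 1 and 10, 17 between 10 and 100 and 17 above 100. Among the 13 at most at 1 read, 5 genes, MELO3C030687.2, MELO3C028813.2, MELO3C033394.2, MELO3C014093.2 and MELO3C035516.2, were at 0 in 12 of the 12 TTDV libraries. Their lowest F39 libraries held 12.2, 23.3, 0, 0 and 1.39 reads in that order. The 13 genes at or below 1 read were not abundant in F39 either: their F39 medians ran from 4.30 to 119 reads, with a middle value of 32.5. The 60 genes thus held both near-absent and well-read transcripts of TTDV fruit.

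The F39 group means also differed between the 4 environments, without a test, and libraries within a group differed too. Of 2 genes named after their values were seen, MELO3C016719.2 had F39 group means spanning 1.05 log2-like units, beside a mean SD within groups of 1.24. In MELO3C013359.2 the span was 4.37, beside 0.505. The ratio of the highest to the lowest F39 group mean had a median of 2.41 over the 60 genes, stayed under 2 for 24 and passed 4 for 15. MELO3C027618.2 was the steadiest, at a ratio of 1.07, with 127 to 257 reads in the 12 F39 libraries and 31.3 to 107 in the 12 of TTDV. MELO3C013359.2 moved most, at 27.6, from 127 ± 29.3 reads at Uvalde 2018 to 3506 ± 1479 at North Carolina (SD, n = 3 each), while its TTDV group means stayed at or below 74.8. F39 was highest at Uvalde 2018 for 27 genes, at California for 15, at North Carolina for 13 and at Arizona for 5. It was lowest at North Carolina for 27, at Arizona for 14, at Uvalde 2018 for 11 and at California for 8. The shares over all genes were not counted.

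**Figure D1:**
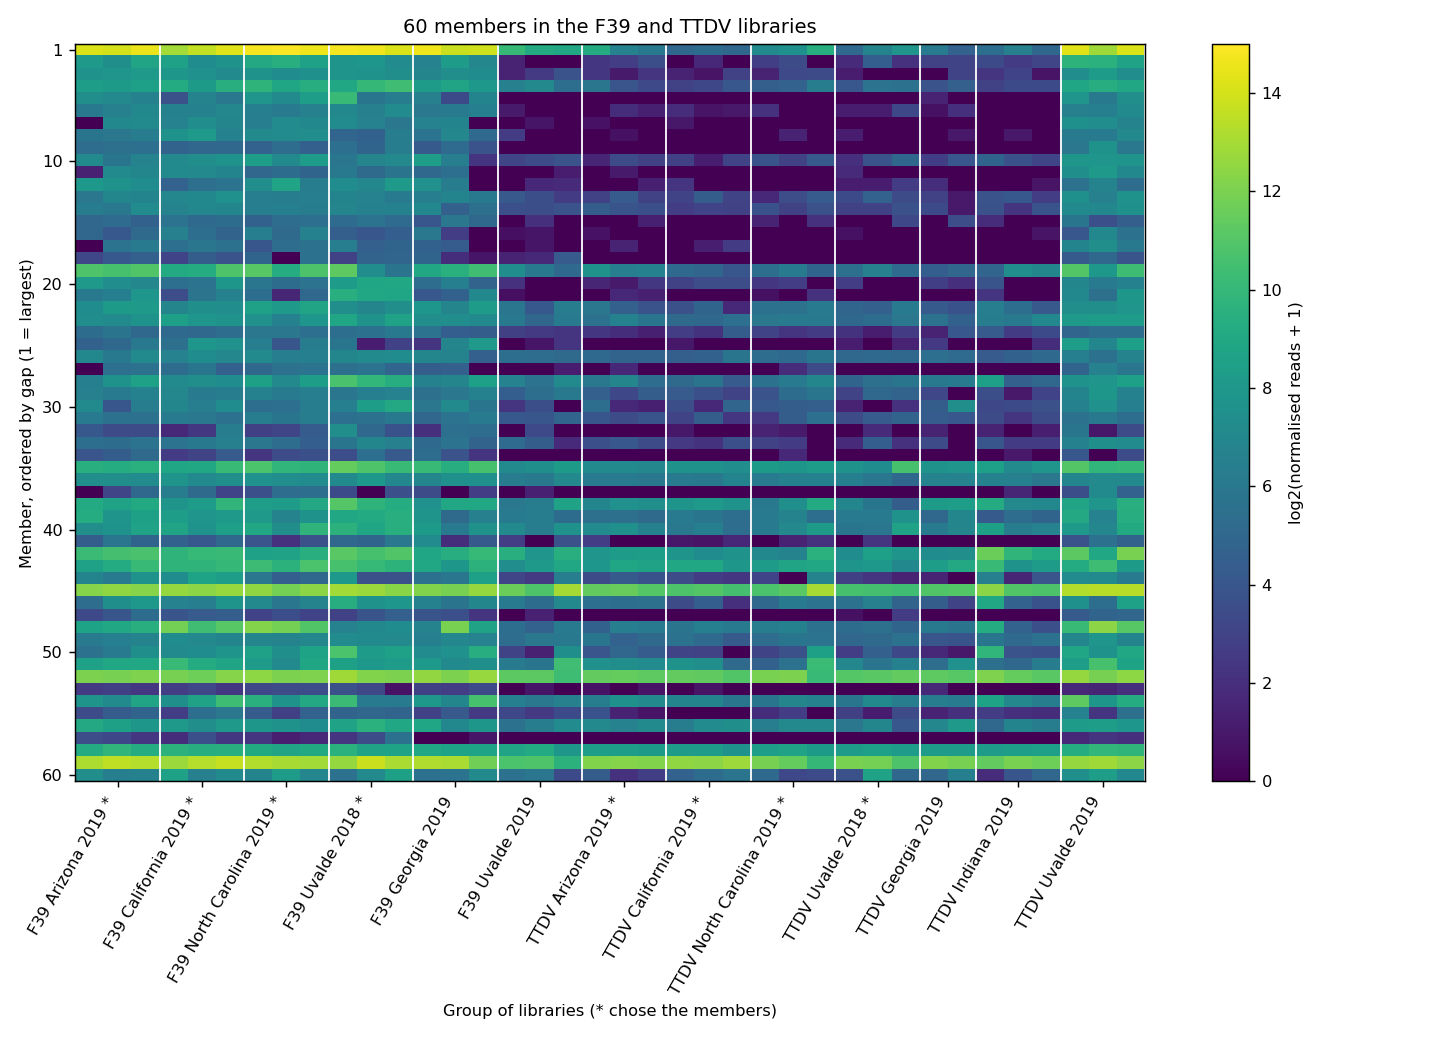
Level of the 60 genes (rows, ordered by gap) in the 38 libraries of F39 and TTDV (columns, by group), as log2(normalised reads + 1); groups marked with an asterisk chose the genes. The libraries labelled TTDV at Uvalde 2019 are bright like F39 elsewhere, and those labelled F39 are dark like TTDV.

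Georgia was the first environment outside the choice in which both cultivars were grown. All 60 genes had a higher mean in F39 than in TTDV there, against 51.4% of the 17383 genes tested; without single libraries it was 54 to 60, lowest without TTDV Georgia replicate 1. The median difference was 1.34 over the 60 genes and 0.018 over all genes. In limma's moderated test with Benjamini-Hochberg adjustment over all genes, 21 of the 60 were higher in F39 at adjusted p under 0.05 and 0 lower, with 0.851% of all genes called higher and 2.26% called in either direction. At an unadjusted p under 0.05 the count was 43, with 15.8% of all genes. The 3 F39 libraries lay wholly above the 2 TTDV libraries for 40 genes, which was so for 15.2% of all genes.

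MELO3C016167.2 held 25686, 14045 and 15613 reads in F39 Georgia and 75.9 and 25.3 in TTDV Georgia. The F39 libraries lay far above those of TTDV, and the difference was 7.84 ± 0.62 (SE; limma adjusted p = 5.15e-09). MELO3C018372.2 held 500.0, 745 and 1355 reads in F39 and 21.3 and 30.5 in TTDV. Its libraries did not overlap either, with a difference of 3.90 ± 0.88 (limma adjusted p = 0.0142). MELO3C018372.2 missed the threshold with limma's voom on the recovered reads (adjusted p = 0.0904), with only the compared groups in the fit (0.0559) and without single libraries (0.0546 without F39 Georgia replicate 3, 0.0913 and 0.207 without TTDV Georgia replicate 1 or 2).

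The Georgia count was 1 of 44 tested genes with only the 2 compared groups in the fit, where 7 of 14086 genes in all were called, and 8 of 60 without TTDV Georgia replicate 2, where 38 of 17342 were called. Without F39 Georgia replicates 2 and 3 it was 20 of 60, with 521 of 17321 in all, but then 1 F39 library stands for Georgia and its spread is taken from the other groups.

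By level, the genes called at Georgia were 3 of the 13 at most at 1 read in TTDV, 7 of the 13 between 1 and 10, 8 of the 17 between 10 and 100 and 3 of the 17 above 100. A midpoint between the lowest F39 and the highest TTDV group mean of the choosing environments was set for each gene to place single libraries. F39 Georgia replicates 1, 2 and 3 had 49, 45 and 47 of the 60 genes above it, and TTDV Georgia replicates 1 and 2 had 2 and 5. The group mean of F39 Georgia lay above it for 52 genes (86.7%, against 62.5% of the 437 further genes) and that of TTDV Georgia for 3 (5%, against 22.2%). All 3 F39 Georgia libraries were above it for 28 genes and none of the 60 had all 3 below; 7, 9 and 9 genes were below only in replicate 1, 2 or 3.

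The libraries labelled F39 and TTDV at Uvalde 2019 showed the opposite order. Each of the 60 genes had a lower mean in the libraries labelled F39, against 49.4% of all genes tested, with a median difference of -1.90 (0.0048 over all genes). In limma, 39 of the 60 were lower and 0 higher, with 2.36% of all genes called lower and 4.77% called in either direction. The labelled F39 libraries lay wholly below the labelled TTDV libraries for 48 genes, which held for 7.75% of all genes.

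MELO3C016588.2 held 1.68, 0 and 0 reads in the libraries labelled F39 and 815, 753 and 404 in those labelled TTDV. The first 3 lay within the range of TTDV elsewhere and the other 3 within or above that of F39, with a difference of -5.05 ± 0.36 (limma adjusted p = 8.44e-11). MELO3C013359.2 held 41.4, 25.4 and 71.8 reads in those labelled F39 and 1106, 5468 and 2162 in those labelled TTDV, without overlap and with a difference of -4.99 ± 0.82 (limma adjusted p = 0.000341). MELO3C016167.2 had 702 ± 299 reads where labelled F39 and 15533 ± 7033 where labelled TTDV (SD, n = 3 each).

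The group mean labelled TTDV lay above the midpoint for 59 of the 60 genes (98.3%, against 75.1% of the 437 further genes), and above the lowest F39 group mean of the choosing environments for 52. The group mean labelled F39 lay above the midpoint for 3 (5%, against 31.8%) and below the highest TTDV group mean for 35. Per library, the labelled TTDV replicates had 58, 52 and 58 genes above the midpoint and the labelled F39 replicates 5, 4 and 13. Whether the labels were exchanged, in the field, at harvest or later, was not tested. With only the compared groups in the fit the count was 13 of 56 tested genes, and no count over all genes for this fit was set beside it.

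**Figure D2:**
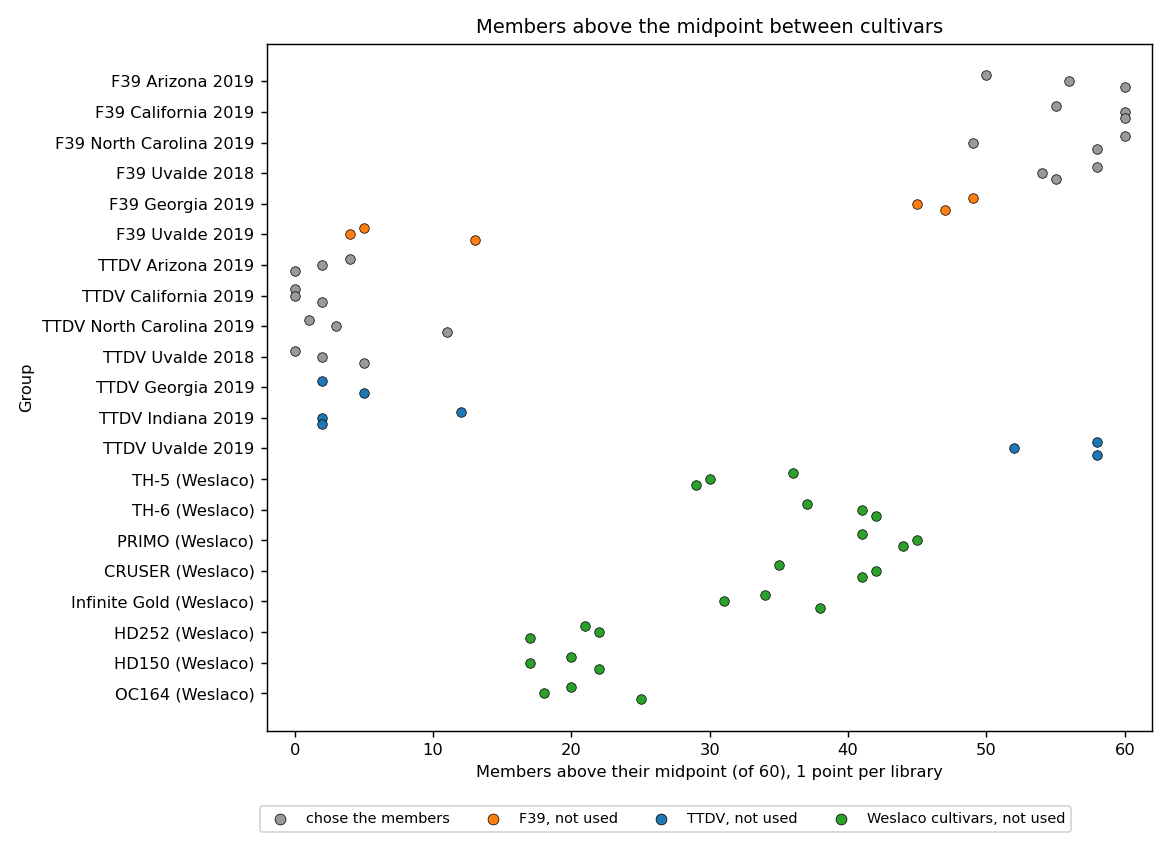
Number of the 60 genes above their midpoint (horizontal axis) in each library (points), by group (rows); grey groups chose the genes. The labelled TTDV libraries of Uvalde 2019 lie at 52 to 58 and the labelled F39 libraries at 4 to 13, while F39 Georgia lies at 45 to 49.

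The difference between libraries labelled F39 and those labelled TTDV was not the same at Georgia and Uvalde 2019. It is a difference between cultivars only if the Uvalde 2019 labels hold, which was not tested. The interaction (difference at Georgia minus difference at Uvalde 2019) was above 0 at adjusted p under 0.05 in limma for 46 of the 60 genes and below 0 for none of them. It was called above 0 for 4.03% of all genes and in either direction for 8.66%. Its median was 3.12 over the 60 genes. It was 12.18 ± 0.84 for MELO3C016167.2 (limma adjusted p = 3.76e-11) and 7.75 ± 1.23 for MELO3C013359.2 (limma adjusted p = 0.000152). MELO3C013359.2 held 104, 4127 and 407 reads in F39 Georgia and 67 and 54.7 in TTDV Georgia, so 1 of its F39 libraries lay well above the other 2. Libraries were apart in both environments, and in opposite orders, for 32 genes, which held for 2.36% of all genes. The counts under other fits that follow have no count over all genes beside them. The count was 28 of 58 with only the 4 compared groups in the fit, and 43 of 60 with F39 Georgia replicate 1 as the lone F39 Georgia library, assumed to vary like the other groups.

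The 2 environments share no library, and their calls are set side by side. Of the 60 genes, 19 were called at both, 2 at Georgia alone, 20 at Uvalde 2019 alone and 19 at neither. Over all 17383 genes, 38 (0.219%) were called higher in F39 at Georgia and lower at Uvalde 2019, 110 (0.633%) only the first and 373 (2.15%) only the second. The 19 shared genes are 90.5% of the Georgia list and 48.7% of the Uvalde 2019 list. Of the 19 genes called at neither, 6 were called for the interaction, and the matching share over all genes was not counted.

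**Figure D3:**
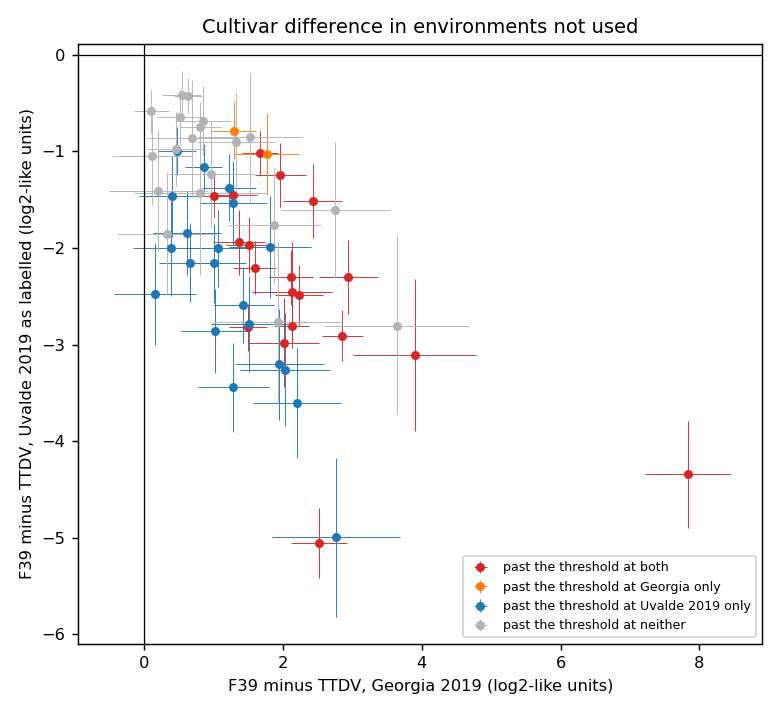
Difference F39 minus TTDV at Georgia (horizontal) against Uvalde 2019 as labelled (vertical) in log2-like units, 1 point per gene with SE bars, coloured by where it passed the threshold. All 60 points lie to the right of 0 and below 0; the SEs are those of the joint fit.

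The reversal was seen under both cultivar labels. Between libraries of the same cultivar label, those labelled F39 were lower at Uvalde 2019 than at Georgia in limma for 30 of the 60 genes, and higher for 0, where 5.07% of all genes were called lower and 11.2% in either direction. The difference was below 0 for 59 genes, with a median of -1.19. The one exception was MELO3C028362.2 at 0.086, named after its value was seen; the number above 0 was 0 with quantile normalisation and voom, and 6 without the library labelled F39 Uvalde 2019 replicate 2. MELO3C016167.2 fell by 4.67 ± 0.56 from 18448 ± 6317 to 702 ± 299 reads (SD, n = 3 each; limma adjusted p = 5.60e-06), and MELO3C016588.2 fell by 3.25 ± 0.36 from 174 ± 109 to 0.56 ± 0.97 (n = 3 each; limma adjusted p = 1.21e-06). The count was 4 of 45 with only these 2 groups in the fit and 20 of 60 with F39 Georgia replicate 1 alone on the Georgia side, under the same assumption.

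Libraries labelled TTDV were higher at Uvalde 2019 than the mean of Georgia and Indiana for 52 of the 60 genes and lower for 0 in limma, with 14.5% of all genes called higher and 26.7% in either direction. The median difference was 2.15. MELO3C016167.2 held 20690, 7521 and 18388 reads at Uvalde 2019, against 75.9 and 25.3 at Georgia and 42.1, 90.4 and 33 at Indiana. The Uvalde 2019 libraries lay far above both, with a difference of 7.46 ± 0.50 (limma adjusted p = 1.95e-11). MELO3C013359.2 differed by 4.55 ± 0.74 (limma adjusted p = 6.15e-05), although 1 Indiana library held 614 reads and the other 2 held 25.4 and 11.5.

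At Indiana, where F39 was not grown, TTDV stayed at TTDV levels for most of the 60 genes. The group mean lay above the midpoint for 4 genes (6.67%, against 24.5% of the 437 further genes), and 12, 2 and 2 genes were above it in replicates 1, 2 and 3. Between Indiana and Georgia 0 of the 60 genes passed the threshold in limma and 0 with voom, and 0.109% of all genes were called. At an unadjusted p under 0.05 there were 6 of the 60, a share near the 9.94% of all genes. MELO3C004383.2, named after its values were seen, held 3202, 887 and 577 reads at Indiana and 156 and 166 at Georgia. It lay higher by 2.64 ± 0.67 without passing the threshold (limma adjusted p = 0.115), and passed it when the Uvalde 2019 libraries left the fit (adjusted p = 0.0482). A count of 0 in groups of 3 and 2 libraries does not show that the genes had the same level in both fields.

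A handful of the genes shared a pattern across single libraries, and were chosen for it after the values were seen. MELO3C031410.2, MELO3C031411.2, MELO3C033030.2 and MELO3C034831.2 were the only 4 of 29980 gene IDs with at most 2 reads in both F39 Arizona replicate 1 and F39 Georgia replicate 3 and at least 10 in each of the other 13 F39 libraries outside Uvalde 2019. In F39 Arizona replicate 1 they held 1.64, 0, 0 and 0 reads in that order, and in F39 Georgia replicate 3 each was at 0. A count of 0 allows up to 2.46 and 2.44 normalised reads in these 2 libraries. In the other 13 they held 27.2 to 137, 15.2 to 84.4, 20.5 to 57 and 60.2 to 166 reads.

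The 17 TTDV libraries outside Uvalde 2019 held at most 2.45, 5.30, 10.3 and 0.92 reads of the same 4 genes, so the 2 F39 libraries read like TTDV in these genes. Over the 60 genes, F39 Georgia replicate 3, which the rule did not use, had 47 above the midpoint and so read like F39. F39 Arizona replicate 1 had 50 of the 60 above it, but the rule used this library, so its count was partly set by the choice. The libraries labelled TTDV at Uvalde 2019 held 125 to 268, 66.5 to 166, 27 to 99.2 and 104 to 180 reads, and those labelled F39 at most 1.33, 0.79, 1.33 and 0.79. None of the 4 passed the threshold at Georgia (limma adjusted p from 0.107 to 0.302), where 1 of the 3 F39 libraries was at 0, and each was lower in the libraries labelled F39 at Uvalde 2019 (limma adjusted p from 1.63e-05 to 0.00139). In F39 Georgia replicate 3 alone, 7 of the 60 genes were under 1 read while the other 2 replicates were above it. This held for 0 genes in replicate 1 and 1 gene in replicate 2. The 7 include the 4 genes above, which were picked for being near 0 in this library, and the share over all genes was not counted.

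**Figure D4:**
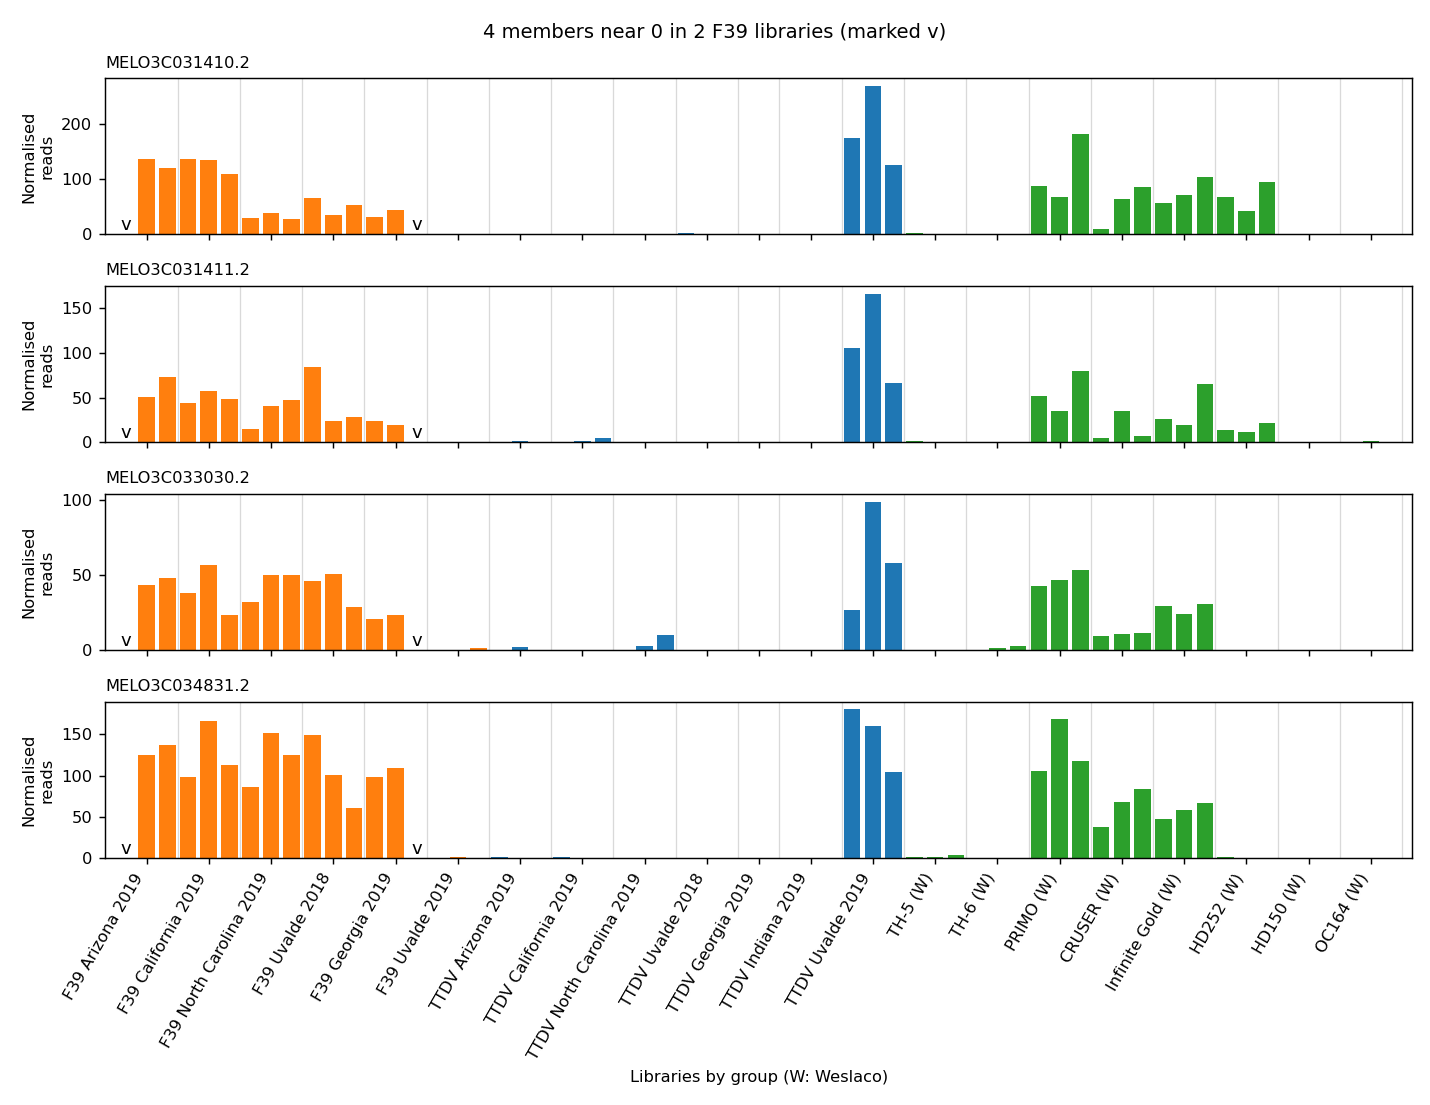
Normalised reads (vertical axis, linear) of the 4 genes in each of the 62 libraries (bars; orange F39, blue TTDV, green Weslaco), with F39 Arizona replicate 1 and F39 Georgia replicate 3 marked. Both marked libraries are at or near 0 while the other 13 F39 libraries outside Uvalde 2019 held at least 15.2 reads.

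At Weslaco the 60 genes were followed in 8 further cultivars. The 2 tables were deposited apart and whether they were scaled together is not given, so levels across tables are a description; both share the same lowest value. The genes varied among these cultivars as well: limma's F test passed for 52 of the 59 genes tested, against 58% of all 17131 genes. The range between cultivar means had a median of 2.17 over the 59 genes and 1.15 over all genes.

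The cultivars differed in how many of the 60 genes they read at the F39 side, and the 437 further genes differed among them in much the same way. The share of the 60 genes lay below that of the further genes in OC164, HD150 and HD252 and above it in the other cultivars. Group means lay above the midpoint for 44 of the 60 genes in CRUSER, 43 in PRIMO, 39 in TH-6, 35 in Infinite Gold, 33 in TH-5, 25 in OC164, 21 in HD150 and 21 in HD252. In percent these are 73.3, 71.7, 65, 58.3, 55, 41.7, 35 and 35, beside 61.6, 65.7, 52.6, 45.3, 41.9, 46, 36.4 and 41.4 for the 437 further genes. The 100% of the F39 groups and the 0% of the TTDV groups that chose the genes are fixed by how the midpoint was set. Among groups not used, F39 Georgia lay at 86.7%, TTDV Georgia at 5% and TTDV Indiana at 6.67%, and each Weslaco cultivar lay between. Above the midpoint in all 8 cultivars were 7 genes, and in none 3, and the most frequent count was 3 cultivars (15 genes). HD150 and OC164 were on the same side for 54 genes (90%, against 67.5% of the further genes).

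MELO3C016167.2 showed the widest range, 7.86 (limma F test adjusted p = 2.85e-10). It held 25806, 33963 and 30155 reads in TH-5 and 21194, 20705 and 35095 in TH-6. In CRUSER, Infinite Gold, PRIMO and HD252 the group means were 17527 ± 10556, 11988 ± 1568, 12617 ± 6022 and 7264 ± 1694 (SD, n = 3 each). HD150, with 134, 34.1 and 156 reads, and OC164, with 380, 99.5 and 65, lay in the TTDV range. The gene thus had 6 cultivars near F39 and 2 near TTDV, with no library between 380 and 5918 reads.

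MELO3C016588.2 divided the same cultivars differently. It held 390 to 1071 reads in TH-6, 190 to 1069 in CRUSER and 199 to 320 in Infinite Gold, and at most 36.6 in each library of the other 5, TH-5 among them. MELO3C020675.2 had the next widest range, 5.29 (limma F test adjusted p = 8.28e-08), from 942, 1075 and 1152 reads in CRUSER to 5.36, 3.72 and 2.94 in HD252 and 0, 0 and 34.6 in OC164. MELO3C031863.2 had the smallest range, 0.79 (limma F test adjusted p = 0.208), at 0 to 18.6 reads. MELO3C020363.2 followed at 0.88 (0.0752), and passed the threshold with quantile normalisation (0.0395) and without CRUSER replicate 1 (0.00758).

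Against the mean of the other 7 cultivars, limma called more of the 59 genes higher than lower in CRUSER, PRIMO, TH-6 and Infinite Gold, and more lower than higher in HD150, OC164 and HD252. PRIMO had 25 higher and 4 lower (15.6% and 13.7% of all genes), and CRUSER 19 and 7 (13.2% and 14.4%). TH-6 had 10 and 3 (1.38% and 1.2%), and Infinite Gold 13 and 6 (2.6% and 2.38%). TH-5 had 9 and 9 (7.03% and 6.05%), a balance that moved to 13 and 6 with voom, to 7 and 10 without TH-5 replicate 1, to 7 and 5 without replicate 2 and to 6 and 4 without replicate 3. Leaving out 1 library also took TH-6 to 7 and 1 (without replicate 3) and Infinite Gold to 8 and 3 (without replicate 3). HD150 had 1 higher and 20 lower (6.23% and 5.64%), OC164 had 3 and 21 (8.38% and 7.39%), and HD252 had 6 and 23 (15.2% and 12.9%). Over the 8 comparisons 179 calls fell on 52 genes. How many of all genes had a call in any of the 8 was not counted. Comparisons of each cultivar with the rest share libraries, so a call in 1 cultivar is not independent of a call in another.

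The genes named for a cultivar are those whose 3 libraries lay apart from the other 21. In TH-5, MELO3C020676.2 held 396, 471 and 493 reads, above the 1.64 to 343 of the others (2.48 ± 0.37, limma adjusted p = 0.000239). MELO3C001989.2 held 64.9, 74.8 and 71.4 there, against 0 to 31.5 (1.37 ± 0.25, adjusted p = 0.00127 in limma). MELO3C035133.2 was at 0 in all 3 TH-5 libraries and at 51.9 to 525 in the others (-2.97 ± 0.28, limma adjusted p = 1.25e-06). A count of 0 allows up to 3.87 normalised reads in TH-5, so its libraries lay below the other 7 cultivars beyond counting error.

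In PRIMO, MELO3C016719.2 held 509, 369 and 880 reads, against 0 to 143 (3.06 ± 0.33, limma adjusted p = 3.31e-06). MELO3C034831.2, 1 of the 4 genes with the shared pattern, held 105, 168 and 117 in PRIMO, against 0 to 83.1 (2.41 ± 0.16, limma adjusted p = 5.81e-09). In CRUSER, MELO3C020675.2 was 3.06 ± 0.37 above the rest (limma adjusted p = 1.75e-05). PRIMO and CRUSER were also the cultivars with the most genes on the F39 side. The further genes had their largest shares above the midpoint in the same cultivars, 65.7% in PRIMO and 61.6% in CRUSER. This rank was thus not particular to the chosen genes.

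In HD150, MELO3C028362.2 held 28.2, 9.54 and 1.27 reads, below the 36.3 to 469 of the others (-2.61 ± 0.35, limma adjusted p = 5.76e-05). In HD252, MELO3C018372.2 held 51.6, 82.5 and 52, against 128 to 3888 (-2.56 ± 0.60, limma adjusted p = 0.00423), and MELO3C007979.2 held 181, 170 and 176, against 276 to 1115 (-1.52 ± 0.25, limma adjusted p = 0.000187). HD252 also had a gene on the other side: MELO3C008097.2 held 32.8, 80.01 and 41.2 reads, above the 0 to 21 elsewhere (1.30 ± 0.25, limma adjusted p = 0.000728). TH-6, OC164 and Infinite Gold had no gene that passed the threshold with its 3 libraries apart.

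Weakly read genes were also followed at Weslaco. Of the 13 genes with at most 1 read in each choosing TTDV group, 11 had a Weslaco cultivar with a mean under 1 read, beside 7 of the other 47. The 13 are weakly read in F39 too, and of the 437 further genes 76 had as little in TTDV, of which 76 had such a Weslaco cultivar, a higher share than among the 13. A gene outside the 13, MELO3C027618.2, named after its values were seen, was at 0 in the 12 libraries of CRUSER, HD150, HD252 and OC164, and at 51.9 to 196 in the 12 of the other 4 cultivars. Its 2 cultivars of the first table, by contrast, were both well read.

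At Weslaco the 4 genes with the shared pattern differed in side in HD252 only. MELO3C033030.2 and MELO3C034831.2 were above the midpoint in CRUSER, Infinite Gold and PRIMO, and MELO3C031410.2 and MELO3C031411.2 in these 3 and HD252. The set of CRUSER, Infinite Gold and PRIMO was not particular to the first pair: 4 of the 60 genes had it, MELO3C026630.2 and MELO3C011536.2 among them. MELO3C031410.2 and MELO3C031411.2 have consecutive ID numbers and were on the same side in 8 of 8 cultivars. The 60 genes held 2 further pairs with consecutive numbers, MELO3C020675.2 and MELO3C020676.2 (same side in 5 of 8) and MELO3C035515.2 and MELO3C035516.2 (7 of 8). Whether reads were shared within a pair was not tested.

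**Figure D5:**
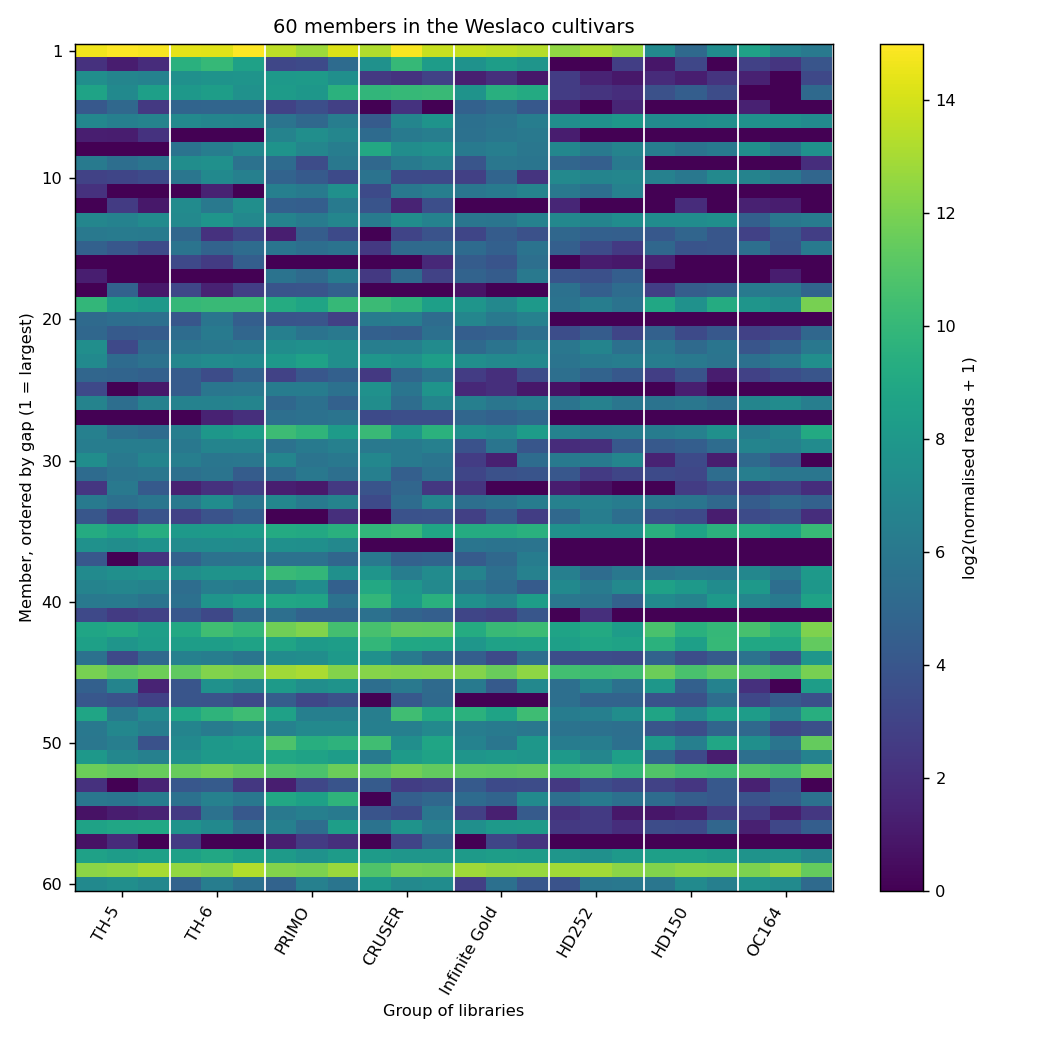
Level of the 60 genes (rows, ordered by gap) in the 24 Weslaco libraries (columns, by cultivar), as log2(normalised reads + 1). The first row, MELO3C016167.2, is bright in 6 cultivars and dimmer in HD150 and OC164, and dark cells mark genes at or near 0 reads.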

How the data were processed

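Fruit RNA was sequenced from F39, TTDV and 8 further cultivars, in libraries made from total RNA with an mRNA kit, per the labels' protocols. The authors deposited variance-stabilised, log2-like values in a pair of tables, one for F39 and TTDV and one for Weslaco. DESeq and DESeq2 are named, without versions, in the submitters' processing notes. For alignment, counting and genome build, the tools were not given in the sources used here. A count of 0 has the value 4.182278 in both tables. Solving the transform for the count returned whole reads (within 0.05) for at least 99.9555% of each library's values.

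Genes with at least 3 libraries 1 unit or more above the lowest value (about 9.08 normalised reads) were tested, 17383 and 17131 in the 2 tables. A gene could pass through its F39 libraries alone. limma 3.58.1 in R 4.3.3 took all libraries of a table into 1 fit, with a coefficient for each group, and was moderated with a trend and robustly. Each comparison's threshold was a Benjamini-Hochberg adjusted p under 0.05 over all genes tested. Genes used by the rule in its 4 environments were not tested there.

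The rule for named genes took the 2 largest gaps, ranks 60 and 61, and per comparison at most 2 higher and 2 lower genes past the threshold whose libraries did not overlap, with the widest and smallest Weslaco ranges. The 60 genes and the rules were chosen with earlier results of these data known. Libraries called Indiana carry Texas in brackets in their label, but Indiana is among the fields of the growth protocol. Alternatives were no filter, a stricter filter (3 units, about 111 normalised reads), quantile normalisation, plain moderation, voom, fits over the compared groups, fits without named libraries, each library left out, and members chosen by single libraries.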

Additional observations from a re-analysis of the deposited data

Results flagged for a closer look

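The difference between libraries labelled F39 and those labelled TTDV was not the same at Georgia and at Uvalde 2019, by limma's interaction test. The interaction passed the threshold for 46 of the 60 genes, each with F39 higher at Georgia and the libraries labelled F39 lower at Uvalde 2019. It was 12.18 log2-like units for MELO3C016167.2 and 7.75 for MELO3C013359.2. The cultivar labels of Uvalde 2019 and the environment cannot be told apart in these 6 libraries.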

How the results depend on the processing

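No named gene's difference turned in direction, nor did the counts of called genes apart from TH-5. The balance of higher and lower calls in TH-5 moved to either side between alternatives. Its median of -0.033 became 0.036 with quantile normalisation and 0.033 with voom. Single members turned too: differences above 0 at Georgia fell from 60 to as few as 54 without single libraries (56 with F39 Georgia replicate 1 alone). Of 59 alternative counts other than single libraries left out, 49 stayed within 1.5 times the reported count. With only the compared groups in the fit, fewer genes passed the filter and fewer libraries set the spread: 1 gene was called at Georgia, 13 at Uvalde 2019, 28 for the interaction and 4 for labelled F39 between Uvalde 2019 and Georgia. Of these, only the Georgia count has a count over all genes set beside it. Members chosen by single libraries, which share 29 of the 60 genes, gave 28 of 36 tested for the interaction. They gave 32 of 36 for labelled TTDV and 30 of 34 for the Weslaco F test. Over all genes tested the shares in these comparisons were 8.66%, 26.7% and 58%. The stricter filter tested 35 genes at Weslaco and gave 31 by the F test, where 7777 of 11667 genes in all passed. It gave 93 calls over the 8 comparisons, with no sum over all genes set beside it. Without Uvalde 2019 libraries in the fit, Indiana against Georgia gave 1 called gene, MELO3C004383.2, and the cause was not tested.

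Leaving out each library in turn gave 8 to 20 genes at Georgia, 33 to 36 at Uvalde 2019, 39 to 47 for the interaction, 23 to 29 for labelled F39, 44 to 50 for labelled TTDV, 0 to 0 for Indiana against Georgia, 168 to 190 calls over the 8 Weslaco comparisons and 48 to 55 by the F test. With voom the Weslaco split of higher and lower calls was 18 and 2 in CRUSER, 16 and 2 in TH-6, 3 and 17 in HD150 and 11 and 23 in HD252. These voom splits and the ranges without single libraries have no counts over all genes beside them here. For the named genes, 533 of 541 alternatives kept their side of the threshold, 6 lost it (MELO3C018372.2 at Georgia, including adjusted p = 0.150 in limma without F39 Georgia replicates 2 and 3) and 2 gained it (MELO3C020363.2). No paired analysis was possible because the replicate numbers only name libraries and the columns carry none. Groups of 2 or 3 libraries and weakly read genes limit what could be called.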
